A study of Drosophila melanogaster with 15 samples.

Results

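The Wnt ligand genes of Drosophila melanogaster encode 7 secreted signalling proteins: wg, Wnt2, Wnt4, Wnt5, Wnt6, Wnt10 and WntD. They were taken by gene name from the authors' annotation of transcription units on genome build dm6, in which a unit is a stretch of 1 strand that holds 1 gene or several. All 7 were found, WntD under the spelling wntD, and they filled 7 of 15991 units. Each stood alone in its unit, as did the gene of 91.6% of the 13047 units that hold a protein-coding gene (coding units in what follows).

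The annotation belongs to an mNET-seq study, an assay that sequences RNA still held by RNA polymerase, of embryos at stage 15. The 15 samples comprised 4 female MOF, 4 male MOF, 4 female control and 3 male control libraries. MOF embryos had been depleted of maternal mof by RNA interference from a UAS transgene, and controls carried a control RNA interference. The driver of the transgene is not given in the sources used here, and replicate 1 of the male controls was not used here. The table carries positions, gene names and transcript names, with no read count or coverage for any sample. What follows therefore describes where the Wnt genes lie and how they are bounded, and MOF and control embryos could not be compared.

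Most Wnt proteins are lipid-modified. In the best known route a Wnt binds a Frizzled receptor with the co-receptor Arrow. This stabilises Armadillo, the fly beta-catenin, and lets it act with the DNA-binding factor Pangolin. Some Wnts signal through Ryk-type receptors such as Derailed. In the fly embryo wg, the orthologue of vertebrate Wnt1, acts as a segment polarity gene that patterns the epidermis. In many animals the genes of the Wnt1, Wnt6, Wnt9 and Wnt10 classes lie side by side, and fly Wnt4 is the member of the Wnt9 class.

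In the fly annotation 4 of the 7 ligand genes formed this cluster on arm 2L, in the order Wnt4, wg, Wnt6 and Wnt10. Wnt4 lay on the minus strand and the other 3 lay on the plus strand. The cluster ran from 7255419, the end of Wnt4, to 7377528, the end of Wnt10, a span of 122110 bp. Wnt4 and wg thus pointed away from each other, and wg, Wnt6 and Wnt10 followed each other head to tail.

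The wg unit (FBgn0284084) spanned 7307159 to 7316265 and was the shortest of the cluster, with 9107 bp and 1 transcript. Wnt4 (FBgn0010453), which acts in cell movement in the ovary and in motor axon targeting, spanned 7255419 to 7277171 and was the longest, with 21753 bp and 2 transcripts. Wnt6 (FBgn0031902), needed for the maxillary palp, spanned 7333714 to 7352542, which made 18829 bp with 2 transcripts. Wnt10 (FBgn0031903) spanned 7363379 to 7377528, which made 14150 bp with 1 transcript. The longest unit of the cluster was 2.39 times as long as the shortest.

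The starts of Wnt4 and wg lay 29988 bp apart, with no unit of either strand between them. Among 3215 pairs of neighbouring coding units that point away from each other, the median distance between starts was 480 bp, and only 69 pairs lay farther apart than Wnt4 and wg. From the end of wg to the start of Wnt6 there were 17448 bp. That interval held CR45304, a long non-coding RNA gene of 576 bp on the minus strand, which left 12678 bp free on the wg side and 4194 bp free on the Wnt6 side. Wnt6 and Wnt10 were 10836 bp apart with nothing between them.

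These intervals were long for the arm. The median gap between units on 2L, over both strands, was 461 bp over 2455 gaps, and 32 of those gaps were longer than the one between Wnt4 and wg. The gap from Wnt6 to Wnt10 was exceeded by 184, and the one from wg to CR45304 by 146. The shortest, from CR45304 to Wnt6 (4194 bp), was exceeded by 443. Spacing between starts was more even than the gaps were: 29988 bp from Wnt4 to wg, 26555 bp from wg to Wnt6 and 29665 bp from Wnt6 to Wnt10.

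The cluster held only 3 further units, all of them short and all wholly inside it, which together measured 2121 bp. CG31909, a protein-coding gene of 687 bp with 2 transcripts, lay on the plus strand within Wnt4 from 7257512 to 7258198, and its start was 19659 bp from that of Wnt4. CR44063, an antisense RNA gene of 858 bp, lay on the minus strand within Wnt10 from 7369646 to 7370503, and its start was 7124 bp downstream of that of Wnt10. CR45304, described above, touched no Wnt unit. Units of either strand covered 52.8% of the span, so that 47.2% was free, against 32.1% of the whole of 2L.

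With CG31909 counted, 5 coding units started inside the cluster. Tiles of the same length laid along 2L held a median of 11 coding starts, and 39 of the 191 tiles (20.4%) held 5 or fewer. The free share of the cluster was reached or passed in 45 of those tiles (23.6%). The cluster was thus sparser than most of 2L, but not rare in this.

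Beyond the cluster the ends differed. On the Wnt4 side the next unit, CG13786 on the same strand, lay 2436 bp past the end of Wnt4. On the Wnt10 side the photoreceptor myosin gene ninaC, also on the plus strand, began 173 bp past the end of Wnt10, the closest same-strand neighbour of any Wnt ligand unit.

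The remaining 3 ligand genes stood singly, on 2R, 3R and X. Wnt2 (FBgn0004360), which acts in the male gonad, spanned 9494166 to 9503188 on the plus strand of 2R, with 9023 bp and 2 transcripts. It sat between larger genes of its own strand. Camta, which encodes a calmodulin-binding transcription factor in a unit of 34031 bp, ended 14089 bp upstream. The unit of brp, which encodes the presynaptic scaffold Bruchpilot and measured 37801 bp, began 576 bp downstream. The nearest units of the opposite strand were CG1888, 38758 bp downstream, and CG33757, 39217 bp upstream.

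WntD (FBgn0038134), a feedback inhibitor of Toll and Dorsal signalling, spanned 13292052 to 13293198 on the minus strand of 3R. With 1147 bp and 1 transcript it was the shortest unit of the family. Both close neighbours lay on the opposite strand. CG8773 started 1550 bp upstream and pointed away, and Osi22, a gene of the Osiris family, ended 205 bp beyond the end of WntD, tail to tail. Its nearest unit on the same strand, CG15887, lay 3238 bp downstream.

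Wnt5 (FBgn0010194) was the single ligand gene on X, the chromosome whose transcription MOF raises in males as part of the MSL complex. X held 15.0% of all units, and 1 of 7 is close to that share. Wnt5 guides axons of the ventral nerve cord through the receptor Derailed. Its unit spanned 18501401 to 18505405 on the minus strand, with 4005 bp and 2 transcripts.

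Wnt5 had the tightest surroundings of the family. Upstream, Ggt-1, which encodes a gamma-glutamyl transpeptidase on the same strand, ended 477 bp before the Wnt5 start. Downstream, the DNA repair gene Xrcc2 on the opposite strand ended 142 bp past the Wnt5 end, tail to tail, and GalNAc-T2 on the same strand started 1414 bp past it. The nearest start that pointed away lay 10023 bp off, beyond Ggt-1 and CG6470, in a joint unit of 57382 bp that holds HisRS and Bx. No unit overlapped Wnt5.

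**Figure D1:**
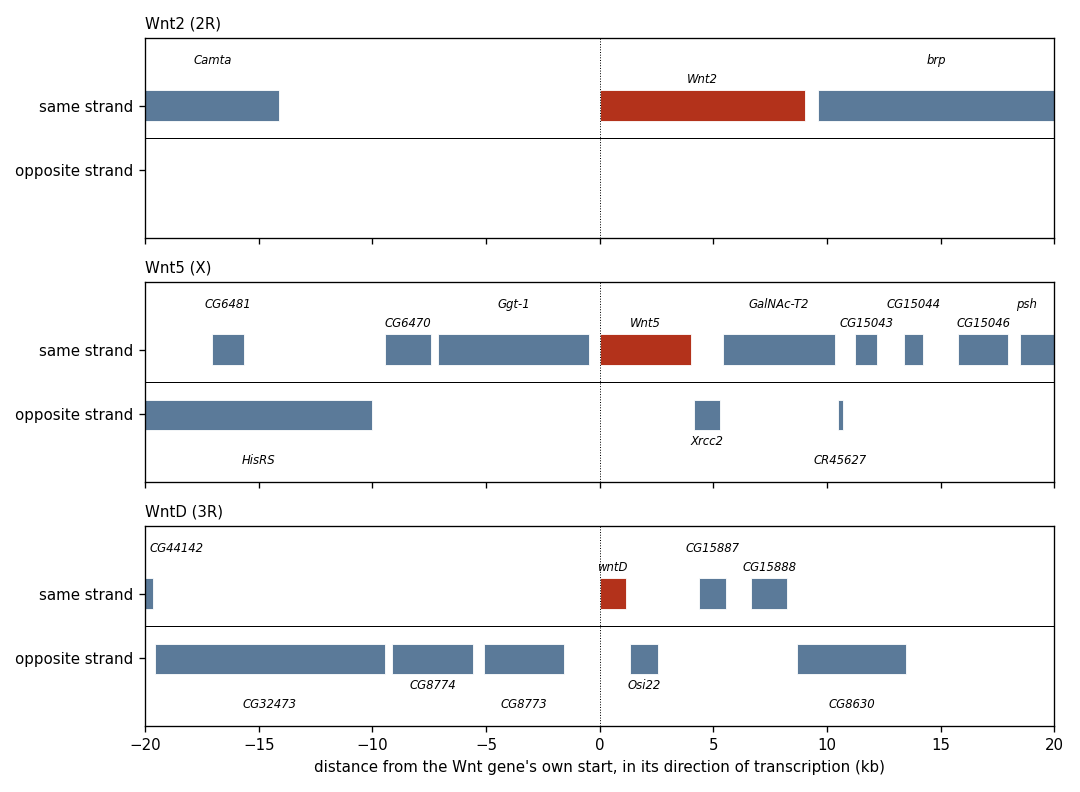
Units within 20 kb of the starts of Wnt2, Wnt5 and WntD, drawn to scale as distance in kb from the gene's own start in its direction of transcription (x axis). Units of the gene's own strand are above the line and those of the opposite strand below it, with the Wnt unit red, other units blue, and units that leave the window cut off at its edge. Wnt2 has 14089 bp free upstream, Wnt5 477 bp and WntD 1549 bp.

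The number of coding starts near each gene set WntD and Wnt5 apart from the other ligand genes, Wnt2 included. Within 20 kb of its own start on either side, wg and Wnt6 had no other coding start, and Wnt2, Wnt4 and Wnt10 had 1 each. The median over coding units was 7, and 91.2% of coding units had more than 1. WntD had 8 and Wnt5 had 10, both above the median, with 32.5% and 17.3% of coding units having more.

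In length the 7 ligand units ran from 1147 bp to 21753 bp, a 19.0-fold range, with a median of 9107 bp against 2240 bp for coding units and 1817 bp for all units. The order was Wnt4, Wnt6, Wnt10, wg, Wnt2, Wnt5 and WntD, so that the 4 cluster members were the longest. The units of wg and Wnt2 were nearly equal. Of all units, 94.1% were shorter than Wnt4, 93.2% shorter than Wnt6 and 91.0% shorter than Wnt10. The shares were 86.8% for wg and 86.6% for Wnt2.

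Wnt5 was longer than 73.8% of all units and than 62.6% of the coding units on X, whose median was 2682 bp. WntD was the exception on the short side, longer than 32.9% of all units and than 21.0% of the coding units on 3R. Thus 6 of the 7 units exceeded the median of coding units, and WntD fell below it. In all 7 the start and end equalled those of the RefSeq gene, so these lengths are gene lengths with introns and untranslated parts included.

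**Figure D2:**
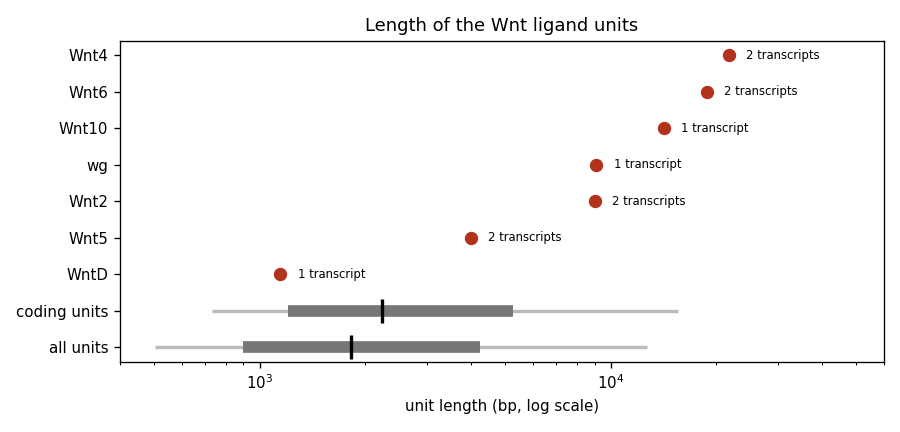
Unit length in bp on a log axis for each Wnt ligand (red points, with the number of transcripts beside them), above the spread of 13047 coding units and 15991 units in all. Grey boxes run from the 25th to the 75th percentile, thin lines from the 10th to the 90th, and black ticks mark the medians. All points but WntD lie right of both medians, 2240 bp and 1817 bp.

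The ligand genes had few annotated transcripts. There were 11 over the 7 units: 2 each for Wnt2, Wnt4, Wnt5 and Wnt6, and 1 each for wg, Wnt10 and WntD, where 47.0% of coding units had 1. The number equalled that of RefSeq transcripts for all 7. Among coding units 72.5% had 1 or 2 transcripts, so the number by itself does not set the family apart.

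Beside units of like length the longer members had fewer. Single-gene coding units between 0.8 and 1.25 times the length of wg numbered 672, with a median of 3 transcripts, and 84.8% had more than the 1 of wg. For Wnt10 the share with more was 84.4% of 463. For Wnt4 and Wnt6, both with 2 transcripts where the median of like units was 4, it was 70.8% of 329 and 66.6% of 377. For Wnt2 it was 57.9% of 668. The short members matched their peers, with medians of 2 for Wnt5 and 1 for WntD. In all, 5 of the 7 lay below the median of units of like length.

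Overlap with the opposite strand was found for 2 of the 7 units, against 39.7% of coding units. Both cases were the small genes nested in Wnt4 and Wnt10. They took up 3.16% of Wnt4 and 6.06% of Wnt10, away from either Wnt start. A whole unit of the opposite strand lay inside 8.25% of coding units, but inside 27.4% of those of like length to Wnt4 and 21.2% of those of like length to Wnt10. The other 5 ligand units were free of any overlap, and none of the 14 ends of the family was covered by another unit. Both ends were free for all 7, against 65.8% of coding units.

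No ligand unit had an opposite-strand start within 500 bp upstream of its own, an arrangement that 27.2% of coding units had. The nearest case was WntD at 1550 bp, followed by Wnt6 at 4195 bp, where the partner was CR45304. Wnt5 followed at 10023 bp. For wg and Wnt4 the distance was 29988 bp, for Wnt10 33860 bp and for Wnt2 39218 bp. The last 2 distances were not free of units. The partner of Wnt10 was CR45304, beyond Wnt6, and that of Wnt2 was CG33757, within the span of Camta.

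The sequence upstream of the starts was mostly free of units over long distances. Counted to the next unit on either strand, it came to 29987 bp for wg and for Wnt4, which share this stretch, 14089 bp for Wnt2, 10836 bp for Wnt10, 4194 bp for Wnt6, 1549 bp for WntD and 477 bp for Wnt5. The family's median was 10836 bp, against 365 bp for coding units. Over 10000 bp were free upstream of 4 of the 7, against 5.28% of coding units. Wnt5 alone sat near the middle of the coding units, 57.5% of which had less. The share with less was 78.9% for WntD and 88.6% for Wnt6, and it reached 98.9% for wg and Wnt4. Single-gene coding units of like length had medians from 298 bp for WntD to 1029 bp for Wnt6. Of these like units, 75.9% had less than Wnt6, 92.9% less than Wnt10 and 97.6% less than Wnt4. The share was 98.8% for wg, 96.3% for Wnt2, 80.2% for WntD and 63.1% for Wnt5.

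Downstream the picture was mixed. The free distance was 12678 bp for wg, 10836 bp for Wnt6 and 2436 bp for Wnt4, but 576 bp for Wnt2, 205 bp for WntD, 173 bp for Wnt10 and 142 bp for Wnt5. Under 1000 bp were free for 4 of 7, against 79.0% of coding units, and the distance at Wnt5 equalled the median of coding units. More was free upstream than downstream at 6 of the 7, against 60.6% of coding units, with Wnt6 the exception. The imbalance was largest at Wnt10, where the upstream stretch was 62.64 times the downstream one, and at Wnt2, where it was 24.46 times.

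**Figure D3:**
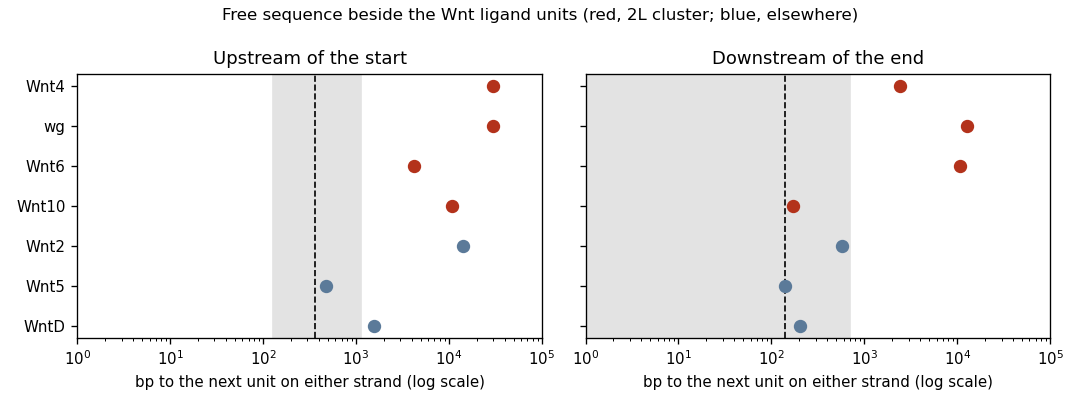
Distance in bp, on log axes, from each Wnt ligand unit to the next unit on either strand, upstream of the start (left panel) and downstream of the end (right panel), for members of the 2L cluster (red) and elsewhere (blue). The grey band runs from the 25th to the 75th percentile of coding units, or from the axis edge where the 25th is 0, and the dashed line is their median. Upstream, Wnt5 alone lies in the band, whereas downstream Wnt10, Wnt2, Wnt5 and WntD do.

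Other genes of the pathway were taken from lists of 48 genes, of which all had a unit. Of these, 8 lay on X: por, fz3, fz4, dsh, arm, sgg, CkIalpha and nej. With Wnt5, X held 9 of 55 pathway genes, close to its share of all units. The X genes span the route from ligand to nucleus, since por encodes the acyltransferase of Wnt proteins, dsh the adaptor Dishevelled, arm beta-catenin, sgg and CkIalpha kinases that mark it for destruction, and nej the acetyltransferase CBP.

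Genes that modify or release ligands had little of the free upstream sequence seen at the ligands themselves. Their units ran from por (2334 bp) to Swim (12855 bp, joined with snoRNA:Or-CD1), with a median of 209 bp free upstream. The gene wls, which encodes the carrier of Wnt proteins to the cell surface, had 191 bp, and por had 227 bp. Notum, the extracellular deacylase, shared a unit with mir-4941 and had 1897 bp. Of the glypicans, which bind Wnts at the cell surface, dally (63688 bp, joined with CG32026) had 16239 bp and dlp (39009 bp) had 523 bp.

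Receptors were mostly longer than the ligands and varied in their flanks. The Frizzled and Arrow units had a median length of 29590 bp, from fz4 on X (4050 bp) to fz2 (94399 bp, joined with CR45941). That of fz, joined with CG13482, was nearly as long (94297 bp), and that of fz3 on X measured 14278 bp. Free upstream sequence was 27331 bp for fz, 10052 bp for fz4, 3844 bp for fz3, 986 bp for fz2 and 282 bp for arr. The Ryk, Ror and Otk receptors ran from otk2 (2127 bp) to dnt (24559 bp), and all lay on autosomes. Their free upstream stretches had a median of 775 bp but ran from 128 bp to 24355 bp. Over 10000 bp were free at 1 of the 6, against 5.28% of coding units.

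The cytoplasmic and nuclear genes had upstream stretches near those of coding units, whose median was 365 bp. The 12 genes of the relay and the destruction complex, from dsh (2844 bp) to sgg (45602 bp, joined with CR45197), had a median of 310 bp free upstream and 4 transcripts. A divergent start lay within 500 bp of 5 of them, against 27.2% of coding units. Axn, the scaffold of the complex, was joined with CR46111, and nkd with CR45940. The 8 nuclear genes, from Cby (768 bp) to pan on chromosome 4 (44945 bp), which encodes Pangolin, had a median of 532.5 bp, and 3 had such a divergent start. In the planar polarity core, from dsh to fz, the median was 474.5 bp, and pk shared its unit with CG11060, CG33140, CG30385 and CG30384.

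Target genes of the pathway, like the ligands, all had upstream stretches above the median of coding units. The 10 listed, from slp1 (1425 bp) to the Hox gene Ubx (77804 bp), had a median length of 14516 bp and 2 transcripts. Their median free upstream stretch was 5580.5 bp, from vg (1378 bp) to the homeobox gene en (49274 bp). Over 10000 bp were free at 1 of the 10, against 4 of the 7 ligands and 5.28% of coding units. Another target had 9996 bp, just under that limit, and wg and Wnt4 among the ligands share 1 stretch. Among the 38 pathway genes that are neither ligands nor targets, 4 had over 10000 bp, beside the same 5.28% of coding units. None of the 10 targets was overlapped on the opposite strand, against 39.7% of coding units. No target had a divergent start within 500 bp, against 27.2%. Of the other 38 pathway genes 19 were overlapped and 11 had such a start, and their median upstream stretch of 372 bp was near the 365 bp of coding units. Where a gene shares a unit, these lengths and distances are those of the unit.

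**Figure D4:**
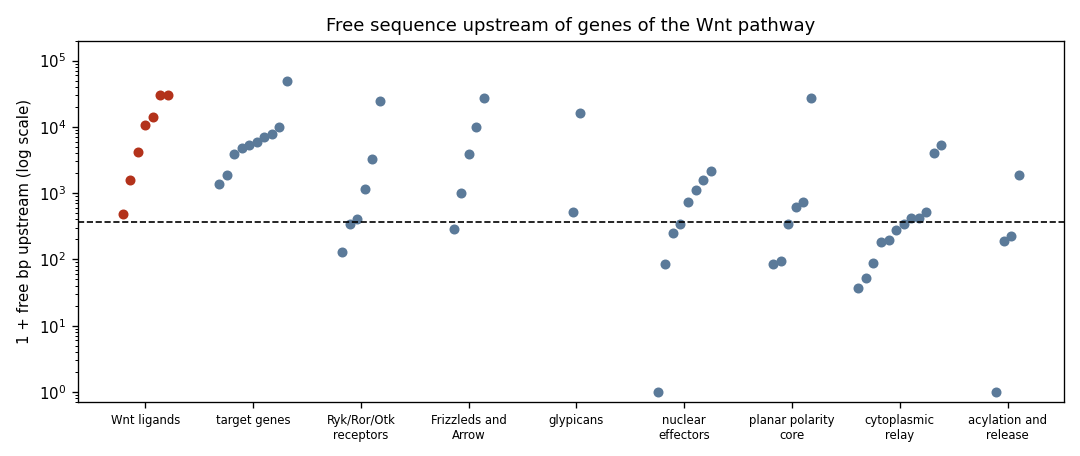
Free sequence upstream of each unit, as 1 + bp on a log axis, for the Wnt ligands (red) and the other lists of pathway genes (blue), with 1 point a gene and genes of several lists shown in each. The dashed line is the median of coding units (365 bp). Ligands run from 477 bp to 29987 bp and targets from 1378 bp to 49274 bp, all above the line, while the other lists spread to both sides of it, apart from the 2 glypicans.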

How the data were processed

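The annotation was exported by the authors from rtracklayer 1.48.0, per the file headers, on build dm6, which the submitters' processing notes name. The values are the deposited start and end positions of units in bp, counted from 1. Its release and the rule for joining genes into units were not given in the sources used here. No file with a value per sample was used, so depth is unknown and no test was run. Shares of units are descriptions of 1 annotation.

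Positions were compared with Python 3.11.15. Genes were matched by symbol, locus tag or synonym to a RefSeq table of assembly Release 6 plus ISO1 MT (17632 of 17698, 99.6%), which gave gene types. An overlap was at least 1 bp. Free distance ran to the next unit of either strand and was 0 where a unit covered the edge. The code was tested on simulated units. Named genes were the ligands, their nearest and overlapping units, and, in each pathway list, members on X, in joint units, and the longest and shortest. The genes wls, arr, vg, en, Vang, CtBP and Ror fall outside this rule and were named after their values were seen. CG6470, Ndae1 and CG5160 also fall outside it and are named only as units on the maps near a ligand gene. Members and lists were chosen with earlier results of these data known, and the limits of 10000 bp and 1000 bp for free sequence and the 20 kb window after seeing values. Sequences of genes and proteins were not used here.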

Additional observations from a re-analysis of the deposited data

How the results depend on the processing

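No paired analysis was possible because the table holds no value of any sample, and for the same reason no replicate could be left out. The 2 overlapped ligand units stayed at 2 with an overlap of at least 100 bp and came to 0 with at least 10% of the Wnt unit, since both nested genes are small. Divergent starts stayed at 0 within 200 bp and within 1000 bp. The 3 other units in the 2L cluster, the 6 ligand units above the median length and the 4 with under 1000 bp free downstream kept their number under each alternative tried. Pathway genes on X were 8 in place of 9 without joint units. Ligand units with over 10000 bp free upstream were 5 in place of 4 with protein-coding neighbours alone, since CR45304 then no longer stands before Wnt6 (17448 bp). That alternative and like lengths of 0.5 to 2 times, which again gave 5 units with few transcripts, were chosen after seeing the data. The shares of shorter units moved with the background, most for WntD, with 23.0% of coding units shorter, against 32.9% of all units. Identity between Wnt proteins and motifs in their promoters were not run, as no sequence was used.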

Other observations

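The closest pair of a ligand gene and another listed pathway gene was on X. Wnt5 and por, the gene of the acyltransferase that modifies Wnt proteins, lay 121546 bp apart on the same strand, with 18 coding units between them. The next closest were WntD and CtBP, the co-repressor gene, 265776 bp apart on 3R with 30 coding units between, and Wnt2 and Vang, a planar polarity gene, 387369 bp apart on 2R with 51 between. No listed pathway gene lay within 2874314 bp of the cluster on 2L, where the nearest was Ror, on the side of Wnt10. These distances were computed after the other results were known.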
